A study of Salvelinus alpinus with 144 samples.

Results

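The miRNAs described here are the entries miR-8156 to miR-8163 of the Atlantic salmon (prefix ssa-), measured in whole embryos of Arctic charr. They were chosen by name, as all rows of the small RNA count table with the ssa- prefix and a number in that span. Earlier results of these data were known when the choice was made. The table had 16 such rows among 53327, and 9 of them reached the minimum of 10 reads over all libraries, out of 2679 distinct rows that did so. The embryos came from crosses of wild-caught parents of 2 morphs of one lake, the small benthic morph (SB) and the planktivorous limnetic morph (PL), all reared together. With the mother named first, the 4 cross-types were SBxSB, PLxPL and the reciprocal hybrids SBxPL and PLxSB, each sampled at 150 and 200 τs, a scale of developmental time. Each of the 8 groups had 9 embryos, 3 from each of 3 families, and the 3 embryos of a family and time point went into 3 sequencing batches.

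A miRNA is cut from a hairpin-shaped precursor into a short duplex, and one or both strands are loaded onto an Argonaute protein, which they guide to messenger RNAs that pair with the seed near the 5′ end of the miRNA. The strand from the 5′ arm of the hairpin is called 5p and that from the 3′ arm 3p, and one of them is usually far more abundant. Reads were counted on the miRNA entries of all species in miRBase, and a read counts on every entry that it matches. A salmon name in this table therefore says which known sequence the charr reads matched, and not which gene of the charr they came from.

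The names were not all particular to salmon in this table. For miR-8159, 5 rows from 5 other fishes (Atlantic cod, Nile tilapia and other cichlids) held 10820 to 11351 reads, against 11380 for ssa-miR-8159-5p. For miR-8160, 13 rows carried the codes of 7 other fishes (cod, cichlids and the electric eel). The rows abu-miR-8160b, with 4681 reads, and eel-miR-8160-5p, with 4672, nearly matched the 4685 of ssa-miR-8160-5p. For miR-8162 and miR-8163, the only rows were those of the salmon. The miRNAs are therefore called by their numbers below, not by a lineage.

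One library of PLxSB at 200 τs, with a total of 127822 against 13928940 to 58027109 in the other 71 (median 37068331), had 0 reads of every member and was left out. Since a read counts on every row that it matches, sums over rows are not numbers of sequenced reads. Summed over the distinct rows, the 71 libraries had 4354656 to 18131706 counts (median 11370791), so that 1 count stood for 0.0552 to 0.23 CPM before scaling. CPM are counts per 1000000 of that sum, scaled with edgeR's TMM factors, and all levels are given in them. Of the miRNAs typical of single tissues, those of brain (ssa-miR-9a-5p), muscle (ssa-miR-133a-3p and ssa-miR-206-3p), liver (ssa-miR-122-5p), epidermis (ssa-miR-203b-3p) and cartilage (ssa-miR-140-3p) were present in all 71 libraries with means of 1531, 214.2, 38.8, 13.4, 136.5 and 14.3 CPM in that order. Another muscle miRNA, ssa-miR-1-3p, had a mean of 9.88 CPM (2.24 to 21.6). The miRNAs of neurons (miR-124) and red blood cells (miR-451) were also looked for, and no ssa- row of either was found among the rows tested. Entries of other species were not searched for them. Adjusted p-values are from edgeR's quasi-likelihood test over all 2679 rows with batch as a term, and a row was called at an adjusted p under 0.1. The embryos of a family share their parents and entered as separate samples, so the p-values measure the spread between embryos.

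The members differed in level by nearly 3 orders of magnitude. The highest was ssa-miR-8159-5p, with a mean of 14.2 CPM ± 3.00 (SD, n = 71), above 67.0% of the 479 other ssa- rows. Next came ssa-miR-8160-5p with 5.42 CPM ± 4.72, above 57.0% of them. The median of those other rows was 3.01 CPM. The 2 strands of miR-8163 followed, with 1.11 CPM ± 0.729 for ssa-miR-8163-3p and 0.784 ± 0.510 for ssa-miR-8163-5p. The strands of miR-8162 lay below, at 0.516 ± 0.257 for ssa-miR-8162-5p and 0.483 ± 0.298 for ssa-miR-8162-3p. Those 2 strands, and those of miR-8163, differed in mean by less than 1 SD between libraries. That SD is not the error of a difference within libraries, and the shares of the strands are given below. The minor strands ssa-miR-8159-3p and ssa-miR-8160-2-3p had 0.0664 and 0.0150 CPM.

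**Figure D1:**
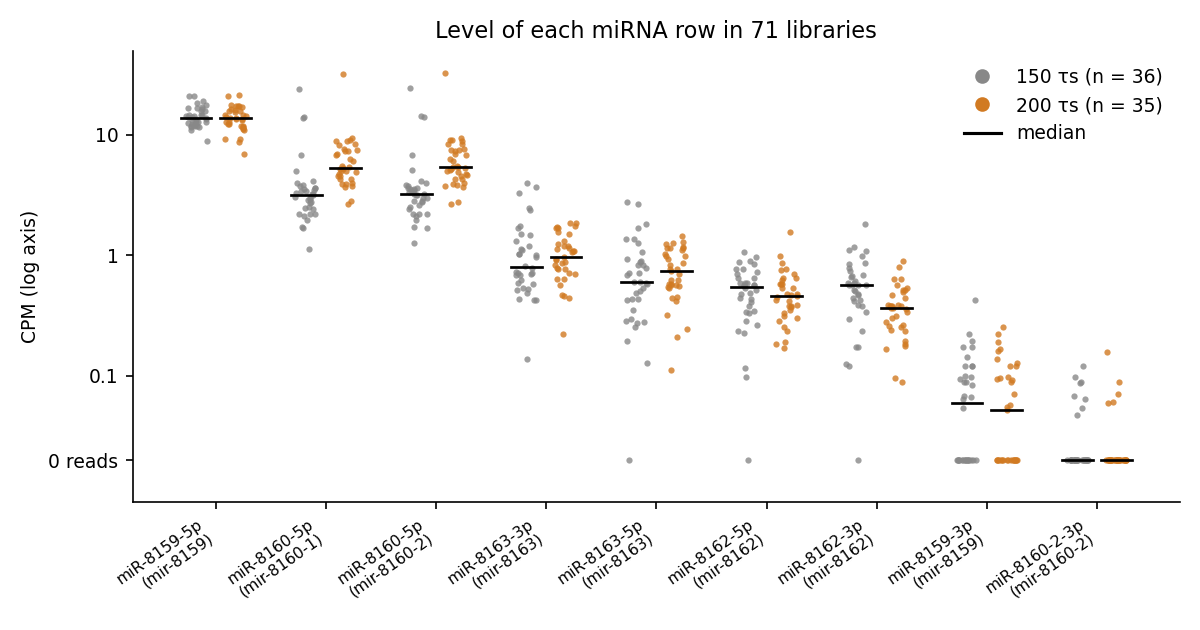
CPM of the 9 rows (log axis) in each of the 71 libraries, with 36 libraries at 150 τs in grey, 35 at 200 τs in orange, and bars at the medians. Points and bars on the line marked 0 reads had no read. The rows of miR-8159-5p and miR-8160-5p stood above the rest, and 58 of 71 libraries had no read of miR-8160-2-3p.

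In reads, ssa-miR-8159-5p had 40 to 343 per library (median 149) and ssa-miR-8160-5p 9 to 401 (median 51). The medians were 11 for ssa-miR-8163-3p, 7 for ssa-miR-8163-5p, and 5 for each strand of miR-8162, so that single libraries carry large counting errors for these. The row ssa-miR-8159-3p had 56 reads in 37 libraries and ssa-miR-8160-2-3p 14 reads in 13, and these are described by their counts only. The sequence of ssa-miR-8160-5p is listed for the precursors mir-8160-1 and mir-8160-2, with 4685 and 4713 reads. These 2 rows were equal in 42 of 71 libraries and differed by at most 6 reads elsewhere, so they are 1 measurement in 2 rows and the first is given below.

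Of the 7 rows below the minimum, ssa-miR-8160-3p had 1 read, and both strands of miR-8156, miR-8157 and miR-8158 had 0. A count of 0 over the 71 libraries allows a mean level of up to 0.00375 CPM (3 counts, for counting error only). None of the salmon rows was named miR-8161.

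The hairpins differed in how unequal their strands were. For miR-8159, the 3p strand made up 0.526% of the reads of both strands at 150 τs (95% Wilson interval 0.362 to 0.764) and 0.460% at 200 τs (0.321 to 0.660). For mir-8160-2 it made up 0.475% (0.241 to 0.934) and 0.197% (0.0905 to 0.430). The strands of miR-8162 were close to equal, with 52.1% 3p (47.2 to 56.9) at 150 τs and 44.3% (39.5 to 49.3) at 200 τs. For miR-8163, the 3p strand was the more abundant one, with 60.5% (56.9 to 63.9) and 57.6% (54.2 to 60.9). These intervals pool libraries and cover counting error only.

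The log2 ratio of 5p to 3p reads, with 0.5 reads added to each, was compared between the time points by a two-sided permutation test over the 12 families, adjusted over the 4 hairpins. For miR-8162, the ratio was higher at 200 τs by 0.45 ± 0.77 (SD over families), in 8 of 12 families, and the adjusted p was 0.132. With 5 reads added in place of 0.5, it was 0.24, with an adjusted p of 0.0729. For miR-8163, the difference was 0.11 ± 0.70, with an adjusted p of 0.590. For miR-8159 it was 0.31 ± 0.83, with an adjusted p of 0.284, and with 5 reads added 0.32, with an adjusted p of 0.00488. Its 3p strand had 0 to 3 reads per library, so with 5 reads added the ratio mostly follows the 5p reads. The 5p reads, not scaled for depth, were 5109 in all at 150 τs and 6271 at 200 τs. The ratio for mir-8160-2 rose by 1.29 ± 0.68 in 12 of 12 families (adjusted p = 0.00195). With 14 reads of that 3p strand in all, most libraries had 0, and the ratio there follows the 5p reads, not scaled for depth. These 5p reads were 1678 in all at 150 τs and 3035 at 200 τs. In family 1 of PLxSB, with 0 reads of the 3p strand, the ratio rose though the 5p level fell from 6.985 to 5.357 CPM. The test therefore cannot tell a change in strand ratio from one in 5p reads or depth. Those 5p reads are shared with mir-8160-1, so the ratio may not be that of mir-8160-2 alone.

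Between 150 and 200 τs, over all cross-types, ssa-miR-8160-5p rose and ssa-miR-8162-3p fell, and no other member was called with embryos as the unit. The rows called were 3 of 9, as ssa-miR-8160-5p has 2 rows, beside 69.8% of all 2679 rows and 72% of the other ssa- rows. By direction, 2 members were called higher and 1 lower at 200 τs, beside 34.5% and 35.3% of all rows. The median log2 fold change of the 9 rows was -0.15, against -0.11 in the other ssa- rows and 0.00 in all rows. In these whole-embryo libraries, a change in the share of a tissue and a change within its cells cannot be told apart.

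The level of ssa-miR-8160-5p at 150 τs ranged from 1.13 to 24.3 CPM (median 3.20, n = 36), and at 200 τs from 2.67 to 32.2 CPM (median 5.37, n = 35). The ranges overlapped widely, while the family means were higher at 200 τs in 11 of 12 families. Family 1 of PLxSB went from 6.9 to 5.29 CPM. It had 2 libraries at 200 τs, as that of batch 2 was left out, and batch 2 lay above batch 1 by a log2 of 0.79. Family means are not adjusted for batch. Over all cross-types, the log2 fold change with batch as a term was 0.66 (SE 0.16, adjusted p = 0.000235). The family means at 150 τs had a median of 3.20 CPM and those at 200 τs of 5.80 CPM. At 200 τs, 11 of the 12 family means lay close together, from 5.24 to 6.85 CPM.

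**Figure D2:**
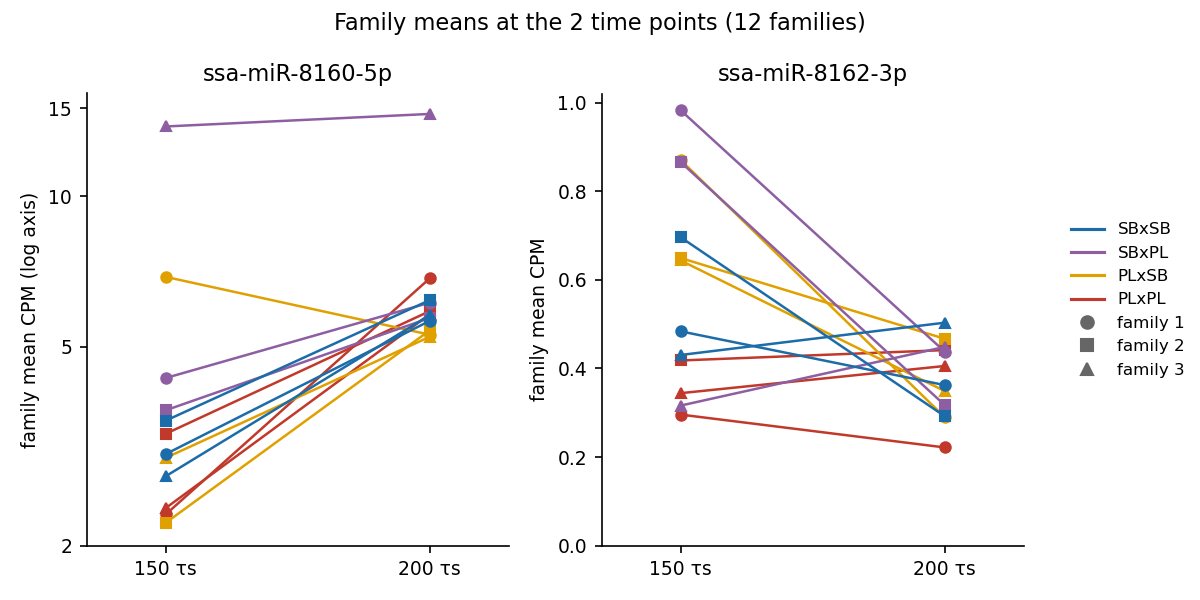
Mean CPM of ssa-miR-8160-5p (left, log axis) and ssa-miR-8162-3p (right) in each of 12 families at 150 and 200 τs, joined by lines, with cross-types by colour and families by symbol. ssa-miR-8160-5p was higher at 200 τs in 11 of 12 families, and family 3 of SBxPL lay above the others at both time points. ssa-miR-8162-3p was lower at 200 τs in 8 of 12 families. The mean of family 1 of PLxSB at 200 τs is over 2 libraries, as that of batch 2 was left out.

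Within cross-types, the rise of ssa-miR-8160-5p was called in the pure crosses and not in the hybrids in the fit without a family term. With family as a term, more member rows were called in PLxSB, as given at the end. In SBxSB, levels went from 2.13 to 5.06 CPM (median 2.87) at 150 τs to 3.79 to 9.002 (median 4.79) at 200 τs, a log2 fold change of 0.87 (SE 0.32, adjusted p = 0.0207). In PLxPL, they went from 1.13 to 3.98 CPM (median 2.54) to 2.67 to 8.85 (median 6.30), a log2 fold change of 1.22 (SE 0.34, adjusted p = 0.00197). In both pure crosses the groups overlapped and all 3 families were higher at 200 τs. The call in SBxSB was lost without its family 2 (adjusted p = 0.116) or its family 3 (adjusted p = 0.1).

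In SBxPL, levels of ssa-miR-8160-5p ranged from 2.95 to 24.3 CPM (median 3.76) at 150 τs and from 3.70 to 32.2 (median 6.10) at 200 τs. The log2 fold change of 0.19 (SE 0.29, 95% interval -0.38 to 0.77) was not called. In PLxSB, levels ranged from 1.69 to 14.2 CPM (median 3.05) at 150 τs and from 2.84 to 9.38 (median 5.0) at 200 τs, with a log2 fold change of 0.34 (SE 0.33, interval -0.30 to 0.99). In both hybrids the medians were higher at 200 τs, while some libraries of 150 τs stood far above the rest. Without family 3 of SBxPL the change in that cross was 0.64 (adjusted p = 0.0463), and without family 1 of PLxSB that in PLxSB was 0.99 (adjusted p = 0.0192). Each was the only call among the 12 fits that left out a family. The change fell to 0.05 (adjusted p = 0.933) without family 1 of SBxPL, and to 0.08 (adjusted p = 0.915) without family 2 of PLxSB. The time change differed between SBxSB and PLxPL by -0.35 (SE 0.47, adjusted p = 0.798), and its difference between hybrids and pure crosses was not tested. Called rows in all were 50% in SBxSB, 49.7% in SBxPL, 49.9% in PLxSB and 56.3% in PLxPL.

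The strand ssa-miR-8162-3p ranged from 0 to 1.82 CPM (median 0.566) at 150 τs and from 0.0893 to 0.900 (median 0.366) at 200 τs. Its log2 fold change was -0.56 (SE 0.17, adjusted p = 0.00304), with lower family means at 200 τs in 8 of 12 families. It was called in the hybrids, at -0.72 in SBxPL (SE 0.30, adjusted p = 0.0433) and -0.85 in PLxSB (SE 0.33, adjusted p = 0.0293). The changes of -0.52 in SBxSB (SE 0.32) and -0.14 in PLxPL (SE 0.40) were not called. Whether the time change of this strand differed between hybrids and pure crosses was not tested. At 150 τs the mean was 0.722 CPM ± 0.511 in SBxPL and 0.721 ± 0.307 in PLxSB, against 0.537 ± 0.187 in SBxSB and 0.353 ± 0.221 in PLxPL (n = 9 each). No hybrid was called against a pure cross for this strand at 150 τs. For SBxPL against PLxPL, the log2 fold change was 0.87 there (SE 0.35, adjusted p = 0.4). At 200 τs the 4 means lay between 0.356 and 0.402 CPM. The calls within the hybrids rest on about 5 reads per library, and they were lost without family 1 (adjusted p = 0.192) or 2 (0.417) of SBxPL, and without family 1 (0.247) or 3 (0.108) of PLxSB.

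The opposite strand, ssa-miR-8162-5p, had a log2 fold change of -0.15 (SE 0.16, 95% interval -0.46 to 0.17) over the same time. For ssa-miR-8163-3p it was -0.18 (SE 0.18, interval -0.54 to 0.17), and for ssa-miR-8163-5p -0.09 (SE 0.20, interval -0.48 to 0.31). The most abundant member, ssa-miR-8159-5p, had a log2 fold change of -0.06 (SE 0.07, 95% interval -0.19 to 0.08). With the counts of each family summed, it was -0.17 and called (adjusted p = 0.0828), and within PLxPL it was called lower at 200 τs in 4 of the 12 fits that left out a family. Its family means were higher at 200 τs in 6 of 12 families. The strand ssa-miR-8159-3p had 27 reads at 150 τs and 29 at 200 τs, and ssa-miR-8160-2-3p had 8 and 6.

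**Figure D3:**
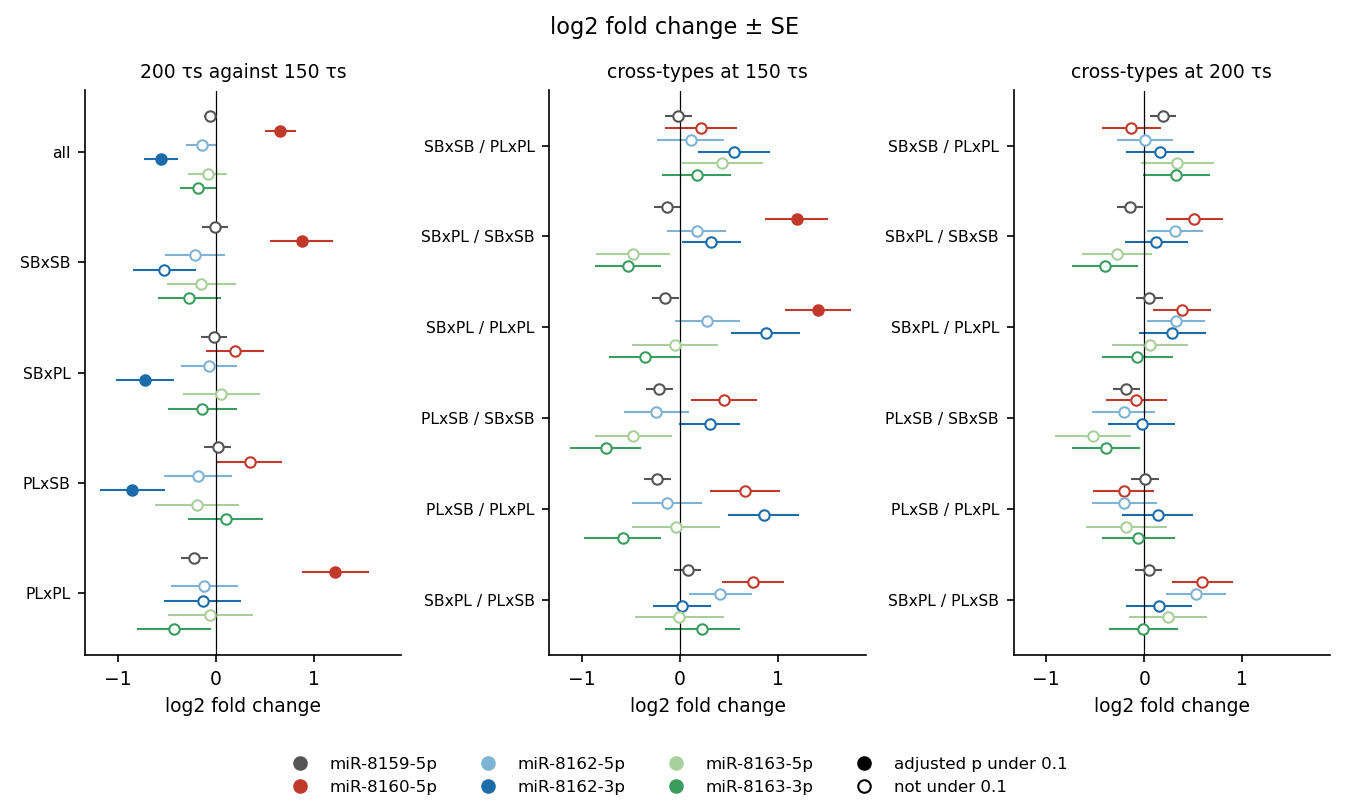
log2 fold changes ± SE of 6 members for 200 against 150 τs (left, over all cross-types and in each) and between cross-types at 150 τs (middle) and at 200 τs (right), where each label reads first against second. Filled points had an adjusted p under 0.1. miR-8160-5p was called for time and for SBxPL against both pure crosses at 150 τs, miR-8162-3p for time, and the other 4 members nowhere.

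The morphs themselves did not differ detectably in these miRNAs. Between SBxSB and PLxPL at 150 τs, 0 of 9 rows were called, beside 0.896% of all rows, and at 200 τs 0 of 9, beside 10.2%. By edgeR, 0 of 9 had an unadjusted p under 0.05 at either time point, and DESeq2 also called 0. The rare strand ssa-miR-8160-2-3p had 0 reads in every PLxPL library and 0 or 1 in those of SBxSB. For ssa-miR-8159-5p, the log2 fold change of SBxSB against PLxPL was -0.02 (95% interval -0.29 to 0.25) at 150 τs and 0.19 (-0.07 to 0.46) at 200 τs. For ssa-miR-8160-5p it was 0.22 (-0.50 to 0.93) and -0.13 (-0.72 to 0.46). The change with time did not differ detectably between the morphs either, with 0 of 9 rows called by edgeR, 0 at an unadjusted p under 0.05 and 0 by DESeq2, beside 0.709% of all rows.

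Among the comparisons with hybrids, ssa-miR-8160-5p was called in a pair, both at 150 τs. Its level in SBxPL ranged from 2.95 to 24.3 CPM (median 3.76), in SBxSB from 2.13 to 5.06 (median 2.87) and in PLxPL from 1.13 to 3.98 (median 2.54). Of the 9 SBxPL libraries, 6 lay within the range of SBxSB, 3 lay above it, and 2 of these did so by a wide margin. SBxPL was higher than SBxSB by a log2 fold change of 1.19 (SE 0.32, adjusted p = 0.0384), and higher than PLxPL by 1.41 (SE 0.34, adjusted p = 0.0688). In the first comparison 2 of 9 rows were called, beside 2.95% of all rows. In the second the 4 rows called in all, or 0.149%, were the 2 of ssa-miR-8160-5p, abu-miR-8160b and eel-miR-8160-5p.

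**Figure D4:**
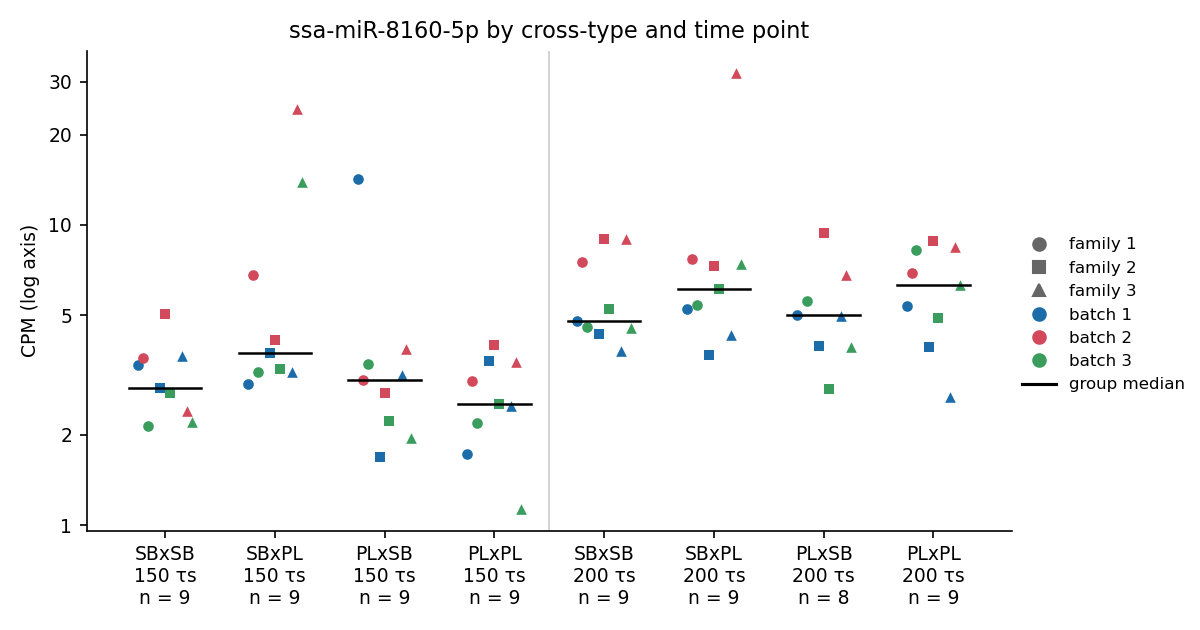
CPM of ssa-miR-8160-5p (log axis) in each library by cross-type and time point, with families by symbol, batches by colour and bars at the group medians. The 4 libraries over 10 CPM were 3 of family 3 of SBxPL and 1 of family 1 of PLxSB at 150 τs, and the other 67 lay between 1.13 and 9.38 CPM.

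Neither call held without 1 family. In family 3 of SBxPL at 150 τs, ssa-miR-8160-5p had 3.23 CPM in batch 1, 24.3 in batch 2 and 13.9 in batch 3. Its other 2 families had 2.95 to 6.80 CPM. Without family 3 of SBxPL, the log2 fold change was 0.32 against SBxSB (SE 0.25, adjusted p = 0.770) and 0.54 against PLxPL (SE 0.26, adjusted p = 0.456). Without its batch 2 library alone it was 0.90 (adjusted p = 0.146) and 1.05 (adjusted p = 0.364), and without its batch 3 library 0.87 (adjusted p = 0.299) and 1.09 (adjusted p = 0.469). The call against SBxSB was also lost without family 3 of SBxSB (1.13, adjusted p = 0.188) or without its batch 3 library alone (1.16, adjusted p = 0.113). The call against PLxPL was near the threshold, and was lost without any of 8 of the 9 PLxPL libraries (adjusted p up to 0.224) and in 7 of the 12 fits that left out a family, those without family 1, 2 or 3 of SBxSB, 3 of SBxPL, 1 or 3 of PLxPL or 3 of PLxSB (adjusted p from 0.122 to 0.456).

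With the counts of each family and time point summed, the unit being the family, the adjusted p was 0.149 against SBxSB and 0.465 against PLxPL. With no batch term in the fit, the values were 1.25 (adjusted p = 0.398) and 1.46 (adjusted p = 0.211).

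The difference of SBxPL from the pure crosses was not seen in every batch. Against SBxSB, the log2 fold change was 0.02 (SE 0.45) in batch 1, 1.62 (SE 0.52) in batch 2 and 1.52 (SE 0.40) in batch 3. Against PLxPL it was 0.36 (SE 0.47), 1.70 (SE 0.54) and 1.80 (SE 0.43) in the same order. The highest libraries of SBxPL were in batches 2 and 3.

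No member was called in any other comparison of cross-types. At 150 τs, 0 of 9 rows were called for PLxSB against SBxSB (1.08% of all rows), PLxSB against PLxPL (0% of all rows) and SBxPL against PLxSB (0%). By edgeR, the unadjusted p was under 0.05 in 1, 1 and 2 of the 9 rows, and DESeq2 called 0 in each. Those rows were ssa-miR-8163-3p, lower in PLxSB than in SBxSB by a log2 fold change of -0.76 (SE 0.36, adjusted p = 0.430), ssa-miR-8162-3p, at 0.86 for PLxSB against PLxPL (SE 0.36, adjusted p = 0.955), and the 2 rows of ssa-miR-8160-5p, at 0.74 for SBxPL against PLxSB (SE 0.32, adjusted p = 0.806). The last of these was 1.46 and called (adjusted p = 0.0224) without family 1 of PLxSB, and by batch it was -0.99, 1.92 and 1.39. That was the only call among the 12 fits that left out a family, and without family 3 of SBxPL the difference was -0.07.

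At 200 τs, 0 of 9 rows were called for SBxPL against SBxSB (0.299% of all rows), SBxPL against PLxPL (1.61%), PLxSB against SBxSB (0.299%), PLxSB against PLxPL (5.19%) and SBxPL against PLxSB (0%). By edgeR, the unadjusted p was under 0.05 in 0, 1, 0, 0 and 0 of the 9 rows, and DESeq2 called 0 in each. That 1 row was ssa-miR-8160-2-3p (adjusted p = 0.428), with 0 reads in PLxPL and at most 2 per library in SBxPL. For ssa-miR-8160-5p at 200 τs, SBxPL against SBxSB gave 0.51 (SE 0.29, adjusted p = 0.553), with family 3 again holding the highest library.

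Over both time points, 4 libraries had more than 10 CPM of ssa-miR-8160-5p, a limit set after seeing the values. In family 3 of SBxPL these were the embryos of batch 2 at 150 τs (24.3 CPM, 277 reads), of batch 3 at 150 τs (13.9 CPM, 283 reads) and of batch 2 at 200 τs (32.2 CPM, 401 reads). The other was the embryo of batch 1 in family 1 of PLxSB at 150 τs (14.2 CPM, 131 reads). The other 67 libraries lay between 1.13 and 9.38 CPM (median 3.93), and the 4 held 23.3% of all reads of the miRNA.

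Of 2679 rows, 4 had all of these libraries above all others, and they were the 2 rows of ssa-miR-8160-5p, abu-miR-8160b and eel-miR-8160-5p. The libraries were chosen on ssa-miR-8160-5p, and the rows of the other fishes hold nearly the same reads. The choice of libraries therefore fixed in advance that these rows would be found. The related row abu-miR-8160a, with 144 reads, had 24.3% of them in the 4 libraries. Their totals were 35868463 to 58027109, where the median of the 71 libraries was 37068331. The muscle miRNA ssa-miR-133a-3p had 144.6 to 279.5 CPM in them, where the means at 150 and 200 τs were 156.5 and 273.6 CPM. Any part of muscle or of other tissues in these high levels was not tested.

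Leaving out these 4 libraries is a selection on the measured value, and it lowers the spread by its construction. All 4 were hybrids and most were of 150 τs. The selection therefore also moves the time change in the hybrids and lowers the excess of SBxPL at 150 τs, so p-values of ssa-miR-8160-5p are not given. Its rise with time was then 0.93 (SE 0.08) over all cross-types, 0.63 in SBxPL (SE 0.17) and 0.98 in PLxSB (SE 0.17). The excess of SBxPL at 150 τs was then 0.35 over SBxSB (SE 0.18) and 0.56 over PLxPL (SE 0.19). The fall of ssa-miR-8162-3p was -0.63 (SE 0.16, adjusted p = 0.000621).

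Sequencing batch moved with the level of 3 of the miRNAs. By an F-test of batch in the same fit, 76.5% of all rows were called, and among the members these were ssa-miR-8160-5p (adjusted p = 8.93e-05), ssa-miR-8159-5p (adjusted p = 0.00845) and ssa-miR-8163-3p (adjusted p = 0.0388). For ssa-miR-8160-5p, batch 2 lay above batch 1 by a log2 of 0.79, with a median of 6.80 CPM against 3.73 in batch 1 and 3.69 in batch 3. For ssa-miR-8159-5p, batch 3 lay below batch 1 by a log2 of -0.25, with medians of 12.2 and 14.04 CPM. Every group spans the 3 batches, and what in the batches differed is not given in the sources used here.

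The change of ssa-miR-8160-5p with time was 0.22 (SE 0.21, adjusted p = 0.430) in batch 1, 0.94 (SE 0.26, adjusted p = 0.00362) in batch 2 and 0.74 (SE 0.21, adjusted p = 0.00386) in batch 3. It was positive in each batch and called in 2 of 3. The fall of ssa-miR-8162-3p was -0.64 (SE 0.27), -0.55 (SE 0.36) and -0.56 (SE 0.26) in the same order. For ssa-miR-8159-5p, the change was 0.05 (SE 0.12) in batch 1, -0.07 (SE 0.10) in batch 2 and -0.30 (SE 0.12, adjusted p = 0.0438) in batch 3.

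Variability among embryos was described with the local coefficient of variation (LCV), the rank from 0 to 100 of a miRNA's CV among the 500 rows nearest in mean, computed over 1783 rows whose group means all reached 10 normalized counts. For ssa-miR-8160-5p, the CV was 99.7% in SBxPL at 150 τs, 101% in SBxPL at 200 τs and 96.0% in PLxSB at 150 τs, with LCVs of 99.2, 99.4 and 100. In the other 5 groups the CV was 29.7 to 38.3% and the LCV 31.8 to 83.6. The groups with high LCVs were those that held the 4 libraries over 10 CPM. With the batch means removed, those 3 groups had LCVs of 98 to 99.4, and the others 9 to 82.4. The greatest move was in SBxSB at 200 τs, where the CV went from 35.1 to 11.5% and the LCV from 83.2 to 9, and in PLxSB at 200 τs the CV went from 38.3 to 21.5%. Counting error alone gives a CV of 9.91 to 18% for this miRNA in a library of mean depth, and more in smaller libraries. With the batch means removed, the CV of 11.5% in SBxSB at 200 τs lay below that group's counting CV of 12.4%.

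ssa-miR-8159-5p was among the less variable rows in most groups, with CVs of 11.9 to 31.2% and LCVs of 5.0 in SBxPL at 150 τs to 79.0 in PLxSB at 200 τs. With the batch means removed, its LCVs ran from 17.8 to 94.2, so its low rank depended on the batches. Its sum of squares in log2 CPM was split with terms entered in order. Groups took 9.11%, batches 14.7%, families within cross-types 19.1%, and 57.1% was residual. For ssa-miR-8160-5p, these shares were 34.7, 16.1, 15.6 and 33.6%. Each share includes what a term with that many levels takes from noise alone, and none was tested.

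Between cross-types, no difference in the level of ssa-miR-8159-5p was called. The group means ran from 13.2 CPM ± 2.30 in PLxSB at 150 τs to 15.4 ± 3.27 in PLxPL at 150 τs (n = 9 each). The log2 fold change between these 2 groups was -0.23 (95% interval -0.50 to 0.04). At 150 τs the medians were 13.6 CPM in SBxSB (12.1 to 21.0), 14.2 in SBxPL (11.8 to 16.99), 12.9 in PLxSB (8.86 to 16.5) and 15.8 in PLxPL (11 to 21.2). At 200 τs they were 14.7 CPM in SBxSB (11.8 to 17.6), 13.2 in SBxPL (9.29 to 21.2), 13 in PLxSB (6.96 to 21.5, n = 8) and 14.1 in PLxPL (8.79 to 17.6). All 8 groups overlapped.

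The strands of miR-8163 were variable from embryo to embryo at 150 τs. The level of ssa-miR-8163-3p ranged there from 0.139 to 3.71 CPM in SBxSB (median 1.03), from 0.438 to 3.31 in SBxPL (median 0.705), from 0.517 to 1.69 in PLxSB (median 0.784) and from 0.424 to 4.02 in PLxPL (median 1.01). At 200 τs it ranged from 0.638 to 1.86 CPM in SBxSB (median 1.19), from 0.461 to 1.75 in SBxPL (median 0.887), from 0.447 to 1.51 in PLxSB (median 0.923) and from 0.225 to 1.85 in PLxPL (median 0.966). The medians stayed close to 1 CPM in every group while the highest libraries at 150 τs reached up to 4 times that level. The SD was 0.930 CPM at 150 τs and 0.442 at 200 τs, a difference that was not tested.

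**Figure D5:**
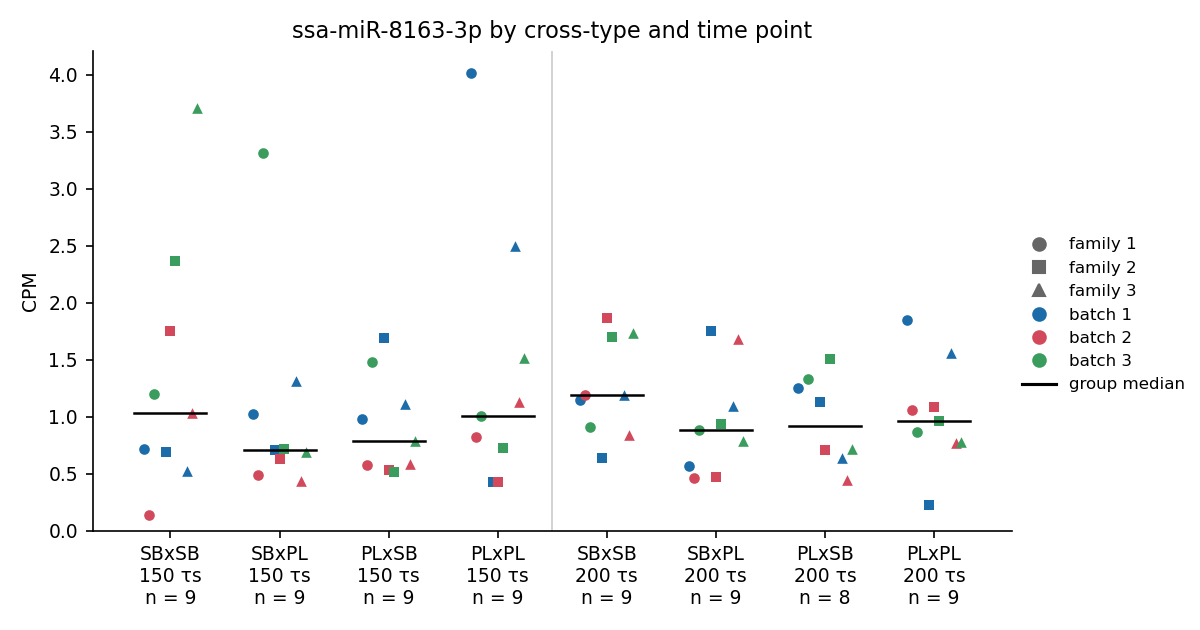
CPM of ssa-miR-8163-3p in each library by cross-type and time point, with families by symbol, batches by colour and bars at the group medians. The 3 libraries above 3 CPM were all at 150 τs, 1 each in SBxSB, SBxPL and PLxPL, and no library at 200 τs exceeded 1.87 CPM.

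The 3 highest libraries of ssa-miR-8163-3p were also the 3 highest of ssa-miR-8163-5p. The embryo of PLxPL, family 1, batch 1 at 150 τs had 4.02 CPM of the 3p strand (21 reads) and 2.68 CPM of the 5p strand (14 reads). That of SBxSB, family 3, batch 3 at 150 τs had 3.71 CPM (69 reads) and 2.79 CPM (52 reads), and that of SBxPL, family 1, batch 3 at 150 τs had 3.31 CPM (49 reads) and 1.82 CPM (27 reads). They belonged to 3 families of different cross-types. The LCVs of ssa-miR-8163-3p were 98.6 to 99.0 in the 3 groups that held them and 71 to 93.8 in the others. In the latter, counting error gives a CV of 26.4 to 30.7% in a library of mean depth, and more in smaller libraries. With the batch means removed, the LCVs were 97.6 to 100 in those 3 groups and 82 to 99 in the others. The ranks then overlapped, with 99 in SBxPL and 98.4 in PLxPL at 200 τs.

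With batch means removed and group means kept, the strands of miR-8163 had a Pearson correlation of 0.672 in log2 CPM over the 71 libraries, and those of miR-8162 of 0.247. These are descriptions over libraries that share families and scaling. Between miR-8159-5p, miR-8160-5p and miR-8163-3p, the correlations were -0.197, 0.0934 and -0.107 for the first with the second, the first with the last and the second with the last. The miRNA most like ssa-miR-8159-5p among 306 ssa- rows with a mean of at least 1 CPM was ssa-miR-192a-5p (r = 0.490), followed by the 2 rows of ssa-miR-222a-5p (r = 0.391). For ssa-miR-8160-5p, these were the muscle miRNA ssa-miR-133a-3p (r = 0.652), ssa-miR-190b-5p (r = 0.631) and ssa-miR-26d-5p (r = 0.620), and for ssa-miR-8163-3p the 3 rows of ssa-miR-205b-5p (r = 0.515). ssa-miR-133a-3p rose from a mean of 156.5 to 273.6 CPM between the time points (log2 fold change 0.82, adjusted p = 2.51e-20), so shared change with time enters the first of these values.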

How the data were processed

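Small RNA of 72 whole embryos was measured, 1 library each. After adapter trimming (Cutadapt) and mapping to a charr genome (miRDeep2), the authors counted reads against miRBase, every species included. The values taken from their deposited table were whole-number counts without normalization. The 72 deposited columns of normalized counts, and the mRNA counts, were not used. Cross-type, time point, family and batch were taken from the labels. Identical count rows were used once, rows under 10 reads and the library under 1000000 were left out, and the rest were tested with edgeR 4.0.16 (TMM factors, quasi-likelihood F-test, 1 mean per group and a batch term, Benjamini-Hochberg adjustment, limit 0.1) in R 4.3.3. The labels give the same batch number for the same embryo letter in all groups, so batch is the replicate block. Fold-change intervals are 1.96 SE. The script was tested on simulated data. Strand ratios were tested with scipy 1.17.1. DESeq2 1.42.0, other size factors, filters, units and covariates, and leaving out each family, were alternatives. Every member is named. The 3 miRNAs most like the most abundant member were named by correlation, and those like the other members, the library left out one at a time and the limit of 10 CPM were added after seeing the data. The members, lists and tests were chosen with earlier results of these data known.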

Additional observations from a re-analysis of the deposited data

Results flagged for a closer look

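In groups of 8 or 9 libraries, 24 groups of members with a mean of at least 1 CPM were checked for a single library far from the rest, of which chance flags about 1 in 20, and 3 had one. For ssa-miR-8160-5p, these were the library of family 1, batch 1 in PLxSB at 150 τs, with 14.2 CPM where the next had 3.86, and that of family 3, batch 2 in SBxPL at 200 τs, with 32.2 CPM where the next had 7.72. For ssa-miR-8163-3p it was the library of family 1, batch 3 in SBxPL at 150 τs, with 3.31 CPM where the next had 1.32.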

How the results depend on the processing

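Over all cross-types, the time changes of ssa-miR-8160-5p (0.61 to 0.76 over the other tests, scalings, filters and terms) and ssa-miR-8162-3p stayed called in every alternative that gave a value, fits within 1 batch aside, and edgeR's filterByExpr removed both strands of miR-8162. Leaving out each family in turn gave 0.59 to 0.82 and -0.67 to -0.50, and 3 members called each time. With family as the unit, ssa-miR-8159-5p was also called for time (-0.17, adjusted p = 0.0828).

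For SBxPL against SBxSB and against PLxPL at 150 τs, the count of rows called went from 2 to 0 with no replicate block (batch term left out) and with family as the unit. Against PLxPL it did so also with all rows of the table kept. The count was 0 without the 4 libraries over 10 CPM too, but that selection lowers the excess of SBxPL by its construction and does not test it. Within SBxPL and within PLxSB, the time change had 1 row called, and 0 with filterByExpr. In PLxSB there were 3 with family as a term. Without the 4 libraries there were 3 in each, but these were left out for their level of ssa-miR-8160-5p, which itself moves its time change. Leaving out families gave 0 to 2 rows called in SBxSB, 0 to 3 in SBxPL, 0 to 2 in PLxSB, 2 to 3 in PLxPL, and 0 to 2 for SBxPL at 150 τs against SBxSB, against PLxPL and against PLxSB. The replicate block changed no other call. With 5 reads added in place of 0.5, the strand ratio change of miR-8159 became 0.32 (adjusted p = 0.00488) and that of miR-8162 0.24 (adjusted p = 0.0729). For miR-8159, with 0 to 3 reads of the 3p strand per library, that ratio mostly follows the unscaled 5p reads.

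Several small differences between SBxSB and PLxPL, none called, changed sign when 1 family was left out. Those that moved by more than their SE were, at 150 τs, ssa-miR-8163-5p without family 3 of SBxSB (range -0.093 to 0.66), and ssa-miR-8159-3p (-0.86 to 1.09) and ssa-miR-8163-3p (-0.21 to 0.42) without family 2 of PLxPL. At 200 τs, those were ssa-miR-8159-3p without family 1 of SBxSB (-0.50 to 0.93) and ssa-miR-8162-5p without family 3 of SBxSB (-0.37 to 0.28). Smaller moves across 0 were those of ssa-miR-8159-5p (-0.24 to 0.12) and ssa-miR-8162-5p (-0.19 to 0.42) at 150 τs and ssa-miR-8162-3p (-0.067 to 0.34) at 200 τs. The causes were not tested. With medians of 1 to 11 reads per library, changes of miR-8159-3p, miR-8162 and miR-8163 could have been missed. The time change of ssa-miR-8162-3p over all cross-types, of -0.56, was called.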
